A study of Mus musculus with 12 samples.

Results

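The SLC25 genes encode the mitochondrial carrier family, and every gene of the count table whose symbol is Slc25a followed by digits was taken, apart from pseudogenes with the suffix -ps. This gave 47 members among 53465 genes, of which 42 had enough reads to be tested. They were followed in mouse bone marrow hematopoietic stem cells (HSCs) in culture, with RNA sequenced in bulk from 12 libraries in 4 groups of 3. Long-term HSCs (LT-HSCs) and short-term HSCs (ST-HSCs) were sorted as lineage-negative cells with Kit, Sca1 and CD150 and without CD48, and differed in the sort by CD34, absent on LT-HSCs and present on ST-HSCs. All groups grew for 2 days in Stemline II medium with SCF and Flt3. Nicotinamide riboside (NR), a vitamin B3 form from which cells make the coenzyme nicotinamide adenine dinucleotide (NAD), was given at 1 mM and renewed after 24 h in the LT-HSC NR and ST-HSC NR groups, and the LT-HSC control and ST-HSC control groups had none. No source used here gives the strain, genotype or age of the mice. Whether replicates were separate mice or cultures is not labelled either, so the p-values speak of the spread among the sequenced samples, part or all of which may be technical.

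SLC25 proteins are encoded in the nucleus, and most sit in the inner mitochondrial membrane, where they exchange a metabolite of the matrix for one of the cytosol. The ADP/ATP carriers and the phosphate carrier feed ATP synthase and export its product, while others move citrate, amino acids, nucleotides, iron, glutathione or cofactors. Slc25a51 carries NAD into the matrix. Quiescent HSCs are known for a low reliance on respiration.

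Gene counts ran from 24.6 M to 35.5 M per library, with a median of 31.7 M. Reads outside annotated genes made up 28.5% of LT-HSC NR sample 3 and 26.2% of ST-HSC NR sample 3, against 8.69% to 17.0% of the other libraries, and results that changed without these 2 libraries are given both ways. Of the sort markers, Kit read 1344 to 1716 CPM (counts scaled to the library's TMM size) in all libraries and Cd48 at most 6.25 CPM, and Cd34 read 230 to 270 CPM in LT-HSCs and 606 to 740 CPM in ST-HSCs. Ly6a (Sca1) read 23.2 to 47.6 CPM in LT-HSCs but only 5.51 to 10.5 CPM in ST-HSCs, and Slamf1 (CD150) 25.1 to 43.5 CPM in LT-HSCs and 10.3 to 20.2 CPM in ST-HSCs. Defining genes of red cells and lymphocytes lay near 0, with at most 4 counts of Hba-a1, 13 of Cd79a and 19 of Cd3e in any library. The summed CPM of 4 megakaryocyte genes was 2392 to 2711 in control LT-HSCs and 1554 to 2152 with NR, and 2649 to 2906 in control ST-HSCs and 1614 to 2104 with NR. Of that list, Pf4 and Itga2b fell in LT-HSCs and these and Gp9 in ST-HSCs (edgeR). The summed CPM of 7 erythroid genes was 42.1 to 51.8 in control LT-HSCs, 28.8 to 33.9 in LT-HSCs with NR, 42.0 to 51.0 in control ST-HSCs and 21.5 to 30.0 in ST-HSCs with NR, and of these only Epor fell by the test. Of the other marker lists, Cd68 rose in both cell types and Lyz2 in ST-HSCs, Procr, Hlf and Fgd5 rose and Slamf1 fell in ST-HSCs, and no mast cell, basophil or lymphoid gene passed. The part of such cells in the results below was not tested.

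With all 12 libraries and the scaling used here (trimmed mean of M values, TMM), more carriers fell than rose with NR. In LT-HSCs 4 of 42 carriers fell and 0 rose at a Benjamini-Hochberg adjusted p under 0.05 over all 19830 genes tested (edgeR quasi-likelihood test), where 7.58% of all genes fell and 2.38% rose. In ST-HSCs 7 fell and 2 rose, against 11.1% and 5.82% of all genes. For the effect averaged over both cell types 9 fell and 4 rose, against 16.1% and 7.88% of all genes. The carriers' shares, 9.52% lower in LT-HSCs, 16.7% lower and 4.76% higher in ST-HSCs and 21.4% lower and 9.52% higher averaged, are near that background. The median log2 change of the 42 carriers was -0.09 in LT-HSCs and -0.12 in ST-HSCs, against 0.04 and -0.03 for all genes tested. This order did not hold without both libraries rich in reads outside genes, where the carriers' medians were -0.05 and -0.03 and those of all genes -0.05 and -0.08. In that fit 0 carriers rose and 3 fell in LT-HSCs, 4 rose and 4 fell in ST-HSCs, and 6 rose and 6 fell averaged. Of all genes 2.63% rose and 4.42% fell in LT-HSCs in the same fit, and 7.79% rose and 6.198% fell in ST-HSCs. Averaged, 10.3% of all genes were higher and 10.6% lower. The split also depended on the scaling: with relative log expression factors 6 carriers rose and 5 fell in ST-HSCs, and 8 rose and 8 fell averaged, while LT-HSCs kept 0 and 4. The split of all genes moved as well, to 8.38% higher and 7.83% lower in ST-HSCs, 11.2% and 11.9% averaged and 3.59% and 6.01% in LT-HSCs. In bulk RNA, fewer cells of a type and less RNA per cell cannot be told apart.

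**Figure D1:**
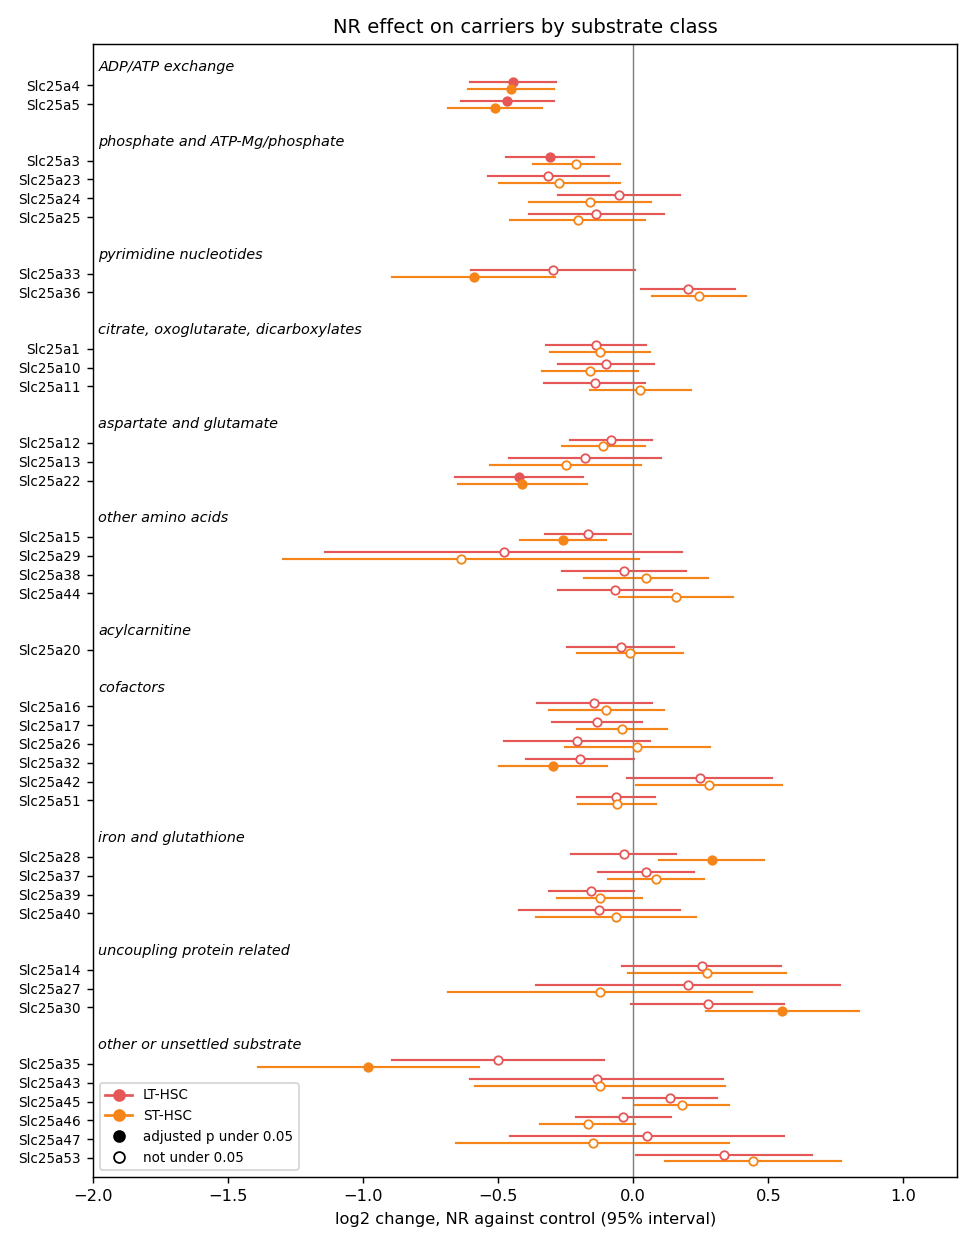
Log2 change of carriers with a mean of at least 1 CPM, NR against control, with 95% intervals, in LT-HSCs (red) and ST-HSCs (orange), ordered by transported substrate; filled points have an adjusted p under 0.05. Slc25a4, Slc25a5 and Slc25a22 are filled in both cell types on the lower side, and Slc25a35 in ST-HSCs lies farthest from 0 among the filled points, at -0.98.

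The ADP/ATP carriers, which swap cytosolic ADP for matrix ATP, fell in both cell types. Slc25a5, the carrier with the highest level, read 773, 883 and 795 CPM in control LT-HSCs and 581, 652 and 540 CPM with NR. In ST-HSCs it read 863, 884 and 880 CPM in control culture and 661, 627 and 556 CPM with NR. Every NR library lay below every control library of its cell type. Averaged over both cell types Slc25a5 fell by 28.7% (log2 change -0.49, 95% interval -0.61 to -0.37, edgeR adjusted p = 4.55e-05). Slc25a4, the form best known from heart and muscle, read 159, 162 and 152 CPM in control LT-HSCs and 114, 125 and 109 CPM with NR. It read 151, 154 and 149 CPM in control ST-HSCs and 122, 101 and 109 CPM with NR. The groups again did not overlap, and Slc25a4 fell by 26.7% averaged (log2 change -0.45, interval -0.56 to -0.33, edgeR adjusted p = 4.81e-05). Both genes stayed called in each cell type and averaged under each other setting tried, including the fit without the 2 libraries rich in reads outside genes. The third gene of this class, Slc25a31, known from testis, had 0 to 22 counts and was not tested.

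The promoters of Slc25a4 and Slc25a5 are shown because both genes fell under each setting tried. Each sequence is the 250 bases upstream of the RefSeq transcription start (GRCm38.p6), 5′ to 3′ on the gene's strand, with capitals for a CCAAT box on either strand or an E-box.
Slc25a4 promoter, chr8:46211063-46211312, minus strand: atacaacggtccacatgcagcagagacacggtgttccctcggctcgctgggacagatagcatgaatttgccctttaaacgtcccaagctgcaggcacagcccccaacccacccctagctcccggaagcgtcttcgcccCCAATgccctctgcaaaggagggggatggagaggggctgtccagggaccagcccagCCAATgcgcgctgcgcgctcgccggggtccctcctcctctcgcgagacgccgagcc
Slc25a5 promoter, chrX:36795347-36795596, plus strand: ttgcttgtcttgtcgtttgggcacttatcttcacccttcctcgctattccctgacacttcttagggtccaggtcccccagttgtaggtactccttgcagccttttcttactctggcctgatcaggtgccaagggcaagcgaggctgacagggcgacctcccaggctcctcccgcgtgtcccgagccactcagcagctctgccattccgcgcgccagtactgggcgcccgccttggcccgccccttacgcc
Slc25a4 had CCAAT at 112 and 56 bases before the start, and none of the 4 motifs searched was in the Slc25a5 window. Slc25a4 lies on chromosome 8 (46206797 to 46211284, minus strand) and Slc25a5 on chromosome X (36795651 to 36798807, plus strand) in GENCODE M21 on GRCm38. The GENCODE gene of Slc25a4 reaches upstream of the RefSeq start used here, so most of its window and both CCAAT boxes lie inside that gene.

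Slc25a3, the phosphate carrier that supplies ATP synthase, was lower with NR by a smaller step. Its level was 311, 341 and 325 CPM in control LT-HSCs and 261, 275 and 252 CPM with NR, without overlap. In ST-HSCs it was 347, 353 and 330 CPM in control culture and 320, 311 and 259 CPM with NR, also without overlap but with the lowest value in the library rich in reads outside genes. The averaged change was a fall of 16.5% (log2 change -0.26, interval -0.37 to -0.15, edgeR adjusted p = 0.0028), called under each other setting tried. Within LT-HSCs it fell by 19.2% (adjusted p = 0.0196). That call was lost on leaving out any NR sample (0.100, 0.102 and 0.0623), control sample 2 (0.0877) or control sample 3 (0.0578), and with no low-count filter (0.124). In ST-HSCs the log2 change was -0.21 with adjusted p = 0.0748, and the call was gained without NR sample 1 (0.0459), with the share of reads outside genes as covariate (0.0185) and with a replicate block (0.0251). It was not called under the other settings, and without NR sample 3 the log2 change was -0.05 (adjusted p = 0.738).

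Of the ATP-Mg/phosphate carriers, which adjust the matrix pool of adenine nucleotides, Slc25a23 fell by 18.4% averaged (edgeR adjusted p = 0.00998). It read 31.1, 26.8 and 27.1 CPM in control LT-HSCs and 19.6, 25.3 and 23.5 CPM with NR. In ST-HSCs the values were 31.0, 27.5 and 29.3 CPM in control culture and 24.9, 23.8 and 23.9 CPM with NR. The NR and control libraries did not overlap in either cell type, and neither cell type passed the test alone. The averaged call was lost without LT-HSC NR sample 1 (adjusted p = 0.0670), ST-HSC NR sample 3 (0.0586) or both libraries rich in reads outside genes (0.0691). Slc25a24, Slc25a25 and Slc25a41 did not pass, with averaged log2 changes of -0.11, -0.17 and 0.05, and Slc25a54 had 0 to 10 counts. Without ST-HSC control sample 2, Slc25a25 was called lower in ST-HSCs and averaged.

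**Figure D2:**
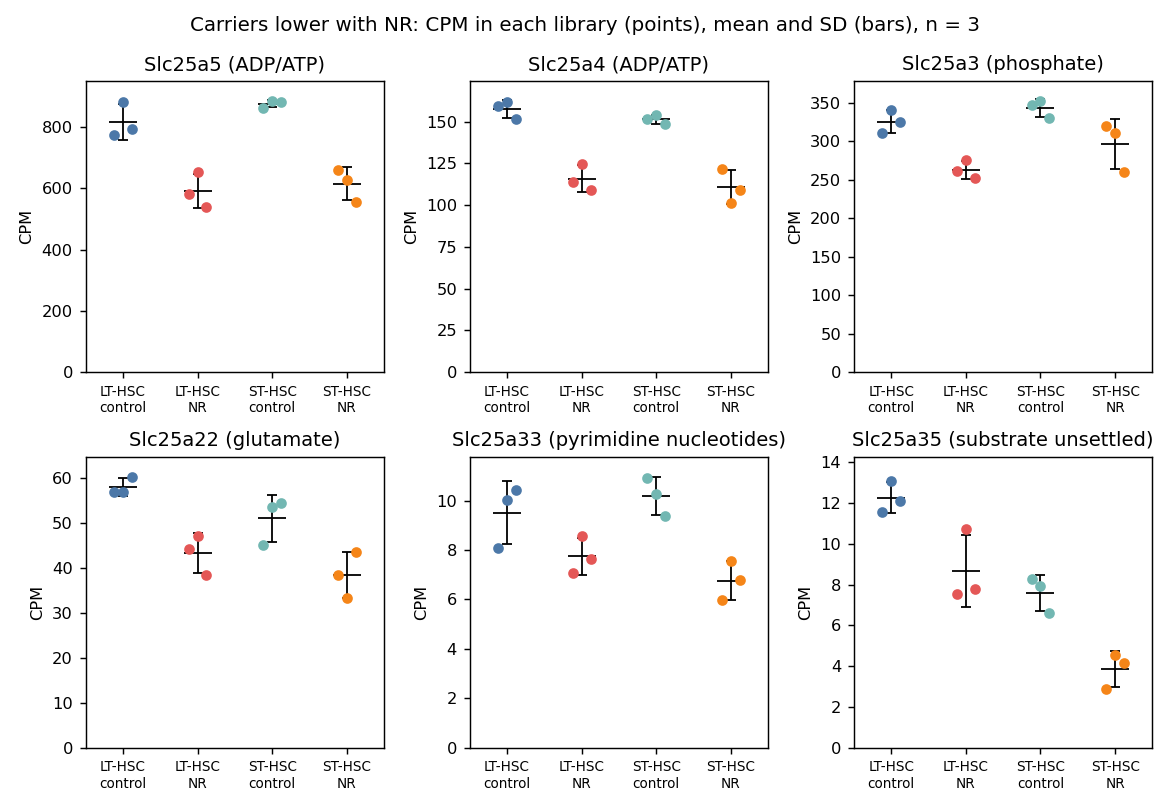
CPM of 6 carriers lower with NR in each library (points), with the mean and SD of 3 libraries per group (bars), all axes starting at 0. NR points of Slc25a4, Slc25a5, Slc25a3, Slc25a22 and Slc25a35 lie below all control points of the same cell type, and those of Slc25a33 do so in ST-HSCs, with overlap in LT-HSCs.

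The 2 pyrimidine nucleotide carriers, which bring in nucleotides for mitochondrial DNA and RNA, moved in opposite directions. Slc25a33 read 8.08, 10.03 and 10.4 CPM in control LT-HSCs and 7.06, 8.55 and 7.62 CPM with NR, with overlap. In ST-HSCs it read 10.9, 10.3 and 9.38 CPM in control culture and 5.99, 7.54 and 6.77 CPM with NR, without overlap. It fell by 26.5% averaged (log2 change -0.44, interval -0.66 to -0.23, edgeR adjusted p = 0.00487) and by 33.6% in ST-HSCs (adjusted p = 0.0105). The ST-HSC call was lost without both libraries rich in reads outside genes (adjusted p = 0.0571) and with no low-count filter (0.0576), while the averaged one held in each setting tried. Slc25a36 read 99.2, 85.2 and 81.9 CPM in control LT-HSCs and 107, 94.9 and 105 CPM with NR, with overlap through control sample 1. In ST-HSCs it read 94.0, 83.3 and 87.0 CPM in control culture and 105, 106 and 103 CPM with NR, without overlap. It rose by 16.6% averaged (log2 change 0.22, interval 0.10 to 0.35, edgeR adjusted p = 0.0116), a call kept in each setting tried, and stayed above the threshold in LT-HSCs (adjusted p = 0.157) and in ST-HSCs (0.0565) alone. Among other settings, the LT-HSC change passed without control sample 1 (0.0482) and with DESeq2 (0.0316). The ST-HSC change passed, among others, without LT-HSC control sample 1 (0.0320), with relative log expression factors (0.0262), with DESeq2 (0.00360) and with a replicate block (0.0210).

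Since both genes are read in the same library, their ratio is free of library scaling. The ratio of Slc25a36 to Slc25a33 was 12.3, 8.50 and 7.85 in control LT-HSCs and 15.1, 11.1 and 13.7 with NR, with overlap through control sample 1. In ST-HSCs it was 8.60, 8.11 and 9.28 in the controls and 17.5, 14.0 and 15.1 with NR, without overlap. On average it was 1.59 times as high with NR. The ratio of Slc25a5 to Slc25a3 was 2.44 to 2.59 in control LT-HSCs and 2.14 to 2.37 with NR, and 2.49 to 2.66 in control ST-HSCs and 2.02 to 2.14 with NR, without overlap in either cell type and 0.853 times as high on average. The ratio of the ADP/ATP carriers Slc25a5 to Slc25a4 was 4.85 to 5.45 in control LT-HSCs and 4.94 to 5.23 with NR, and 5.70 to 5.91 and 5.08 to 6.18 in ST-HSCs, with overlap in both. The pairs for these ratios were chosen after their values were seen, so no p is given for them.

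**Figure D3:**
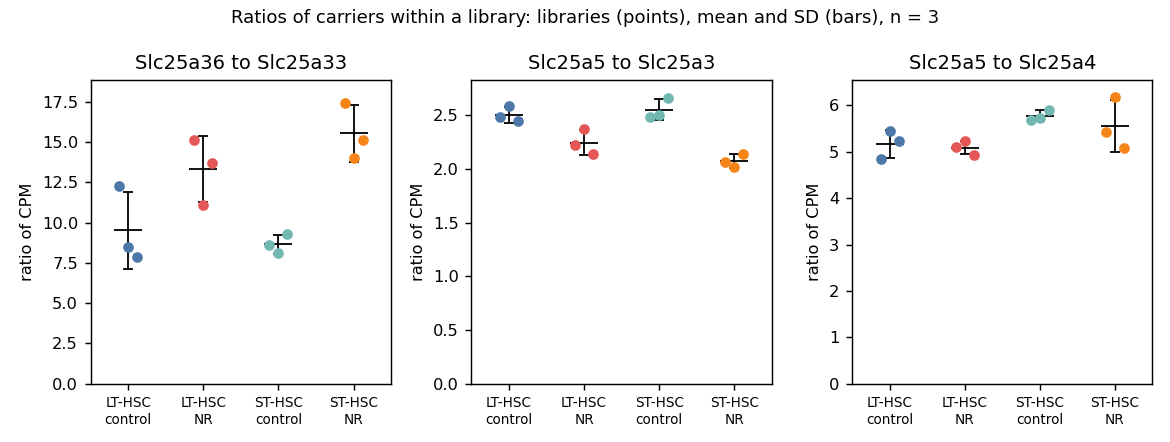
Ratio of the CPM of 2 carriers within each library (points), with the mean and SD of 3 libraries per group (bars), axes from 0. Slc25a36 to Slc25a33 is 14.0 or more in all ST-HSC NR libraries and 9.28 or less in the ST-HSC controls, Slc25a5 to Slc25a3 is lower with NR in both cell types, and Slc25a5 to Slc25a4 overlaps.

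The promoters of the 2 pyrimidine nucleotide carriers are shown because the genes share a substrate and differed in direction.
Slc25a33 promoter, chr4:149774268-149774517, minus strand: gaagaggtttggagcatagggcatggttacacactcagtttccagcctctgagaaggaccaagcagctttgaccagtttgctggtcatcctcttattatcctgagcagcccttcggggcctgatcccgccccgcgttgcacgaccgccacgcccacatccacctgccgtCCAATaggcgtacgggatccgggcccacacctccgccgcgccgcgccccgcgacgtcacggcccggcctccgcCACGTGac
Slc25a36 promoter, chr9:97111042-97111291, minus strand: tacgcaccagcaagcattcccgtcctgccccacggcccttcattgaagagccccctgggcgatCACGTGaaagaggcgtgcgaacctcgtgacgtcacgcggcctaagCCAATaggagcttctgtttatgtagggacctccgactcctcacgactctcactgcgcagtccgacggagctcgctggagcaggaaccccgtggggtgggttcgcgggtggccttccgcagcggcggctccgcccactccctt
Both hold an E-box, CACGTG, at 8 bases before the start in Slc25a33 and 187 bases before it in Slc25a36, and both hold 1 CCAAT box, at 81 and 142 bases before the start. The GENCODE M21 genes of Slc25a33 and Slc25a36, up to 149774277 and 97111157, reach into these windows, and the E-box of Slc25a33 lies inside its gene. Of 46 windows found for 36 of the 47 members, 8 (17.4%) held CACGTG, a palindrome, against 6.02% of 32851 RefSeq windows of the same length. Windows are not separate genes: overlapping windows of Slc25a14 counted the same CACGTG more than once, at 54 and 184 bases before different starts. The share per gene is not reported here. CCAAT, searched on both strands, was in 45.7% of member windows and 33.8% of all windows. On both strands, CCGGAAGT was in 2.17% and 2.88% and TGATGNAA in 0% and 3.45%. Median GC content was 57.4% in member windows and 52.4% in all windows. Such matches describe letters in a window and were not tested as binding sites.

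Of the carriers for citrate, oxoglutarate and dicarboxylates, which move intermediates of the citric acid cycle, 0 of 4 passed in either cell type. Slc25a1, the citrate carrier that feeds cytosolic acetyl-CoA, read 174, 193 and 186 CPM in control LT-HSCs and 159, 185 and 158 CPM with NR. In ST-HSCs it read 179, 168 and 184 CPM in control culture and 180, 161 and 146 CPM with NR. The groups overlapped, and the averaged log2 change was -0.13 (interval -0.26 to 0.00058, edgeR adjusted p = 0.156). Its ST-HSC change of -0.12 turned to 0.03 without ST-HSC NR sample 3. The oxoglutarate carrier Slc25a11 and the dicarboxylate carrier Slc25a10 had averaged log2 changes of -0.06 and -0.13.

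Among carriers of aspartate and glutamate, Slc25a22, a glutamate carrier, fell and the others did not pass. Slc25a22 read 57.1, 56.9 and 60.4 CPM in control LT-HSCs and 44.2, 47.2 and 38.6 CPM with NR. It read 45.2, 53.7 and 54.6 CPM in control ST-HSCs and 38.5, 33.4 and 43.5 CPM with NR. No NR library reached a control library of its cell type. The averaged fall was 25.1% (log2 change -0.42, interval -0.59 to -0.25, edgeR adjusted p = 0.00153) and held in each setting tried. The LT-HSC call (adjusted p = 0.0273) was lost on leaving out any control sample (0.0653, 0.0703 and 0.0925), NR sample 1 (0.0583) or NR sample 3 (0.102), and without both libraries rich in reads outside genes (0.0815). The ST-HSC call (0.0208) was lost without ST-HSC control sample 2 (0.0779) or 3 (0.0881), ST-HSC NR sample 1 (0.0557) or 2 (0.0795), LT-HSC NR sample 1 (0.0511) or 2 (0.0520), whose spread enters the shared fit, and with only the groups compared (0.0554). The aspartate/glutamate carriers of the malate-aspartate shuttle, Slc25a12 and Slc25a13, had averaged log2 changes of -0.10 and -0.21 (adjusted p = 0.21 and 0.121), and the glutamate carrier Slc25a18 had 1 to 16 counts. The averaged fall of Slc25a13 was called with a replicate block (adjusted p = 0.0327) and without ST-HSC NR sample 1 (0.0332).

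Of the other amino acid carriers, Slc25a15, the ornithine carrier of the urea cycle, fell by 13.8% averaged (edgeR adjusted p = 0.00866) and by 16.6% in ST-HSCs (0.0274). It read 55.8, 53.9 and 58.2 CPM in control LT-HSCs and 53.9, 48.3 and 47.3 CPM with NR. In ST-HSCs it read 56.8, 59.3 and 58.1 CPM in control culture and 51.3, 46.1 and 47.9 CPM with NR. The ST-HSC groups stood apart, and in LT-HSCs control sample 2 and NR sample 1 nearly met. The averaged call was lost without LT-HSC NR sample 2 (adjusted p = 0.134), ST-HSC NR sample 3 (0.117) or both libraries rich in reads outside genes (0.177), and with relative log expression factors (0.0638) or no low-count filter (0.166). The ST-HSC call was lost without LT-HSC NR sample 1 (0.126) or 2 (0.173), any ST-HSC control sample (0.0583, 0.0898 and 0.0778), or ST-HSC NR sample 2 (0.0895) or 3 (0.317) or both libraries rich in reads outside genes (0.286), and with relative log expression factors (0.129), DESeq2 (0.0686), a minimum mean of 5 CPM (0.0655) or no low-count filter (0.367). The basic amino acid carrier Slc25a29 had an averaged log2 change of -0.56 with an interval of -1.02 to -0.09 and adjusted p = 0.0831. That fall was called without LT-HSC control sample 1. Slc25a38, which brings in glycine for heme synthesis, and Slc25a44, a carrier of branched-chain amino acids, had 0.01 and 0.05. With a minimum mean of 5 CPM, Slc25a44 was called higher in ST-HSCs. Slc25a2, another ornithine carrier, had 0 to 13 counts. Slc25a20, the acylcarnitine carrier of fatty acid oxidation, had an averaged log2 change of -0.03 (interval -0.17 to 0.11).

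Among the 7 cofactor carriers 1 fell and 1 rose averaged. Slc25a51, the NAD carrier, read 86.6, 88.6 and 93.1 CPM in control LT-HSCs and 88.0, 88.5 and 80.2 CPM with NR. In ST-HSCs it read 89.7, 81.0 and 80.5 CPM in control culture and 81.2, 80.8 and 78.9 CPM with NR. The groups overlapped in both cell types. Its averaged log2 change was -0.06 (interval -0.16 to 0.04, edgeR adjusted p = 0.445), and the sign turned to 0.0026 with relative log expression factors and 0.014 without both libraries rich in reads outside genes. The highest of 12 libraries was 1.18 times the lowest, the narrowest range of the 39 carriers with a mean of at least 1 CPM, whose median ratio was 1.40.

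Slc25a32, which carries folate or the flavin cofactor FAD, fell by 15.7% averaged (edgeR adjusted p = 0.0142) and by 18.5% in ST-HSCs (0.0442). It read 53.6, 59.1 and 49.7 CPM in control LT-HSCs and 45.4, 51.3 and 45.0 CPM with NR, and 46.2, 55.3 and 53.8 CPM in control ST-HSCs and 41.2, 43.8 and 41.4 CPM with NR. The groups overlapped in LT-HSCs and not in ST-HSCs. The averaged call was lost without LT-HSC NR sample 1 (adjusted p = 0.0553), ST-HSC NR sample 3 (0.0617) or both libraries rich in reads outside genes (0.100), and with no low-count filter (0.0660). The ST-HSC call was lost without LT-HSC control sample 1 (0.0589), LT-HSC NR sample 1 (0.118) or 2 (0.105), ST-HSC control sample 2 (0.163) or 3 (0.146) or ST-HSC NR sample 1 (0.124), 2 (0.0613) or 3 (0.228) or both libraries rich in reads outside genes (0.209), and with relative log expression factors (0.105), DESeq2 (0.0543), no low-count filter (0.214) or only the groups compared (0.0604).

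Slc25a42, which brings coenzyme A into the matrix, rose by 19.9% averaged, close to the threshold (edgeR adjusted p = 0.0464). It read 18.7, 16.04 and 16.2 CPM in control LT-HSCs and 19.5, 21.1 and 19.9 CPM with NR, and 16.5, 16.7 and 14.0 CPM in control ST-HSCs and 17.8, 16.8 and 22.7 CPM with NR. The groups did not overlap, though ST-HSC control sample 2 and NR sample 2 nearly met and the highest value was in the ST-HSC NR library rich in reads outside genes. The call was lost without LT-HSC control sample 2 (adjusted p = 0.101) or 3 (0.0997), LT-HSC NR sample 2 (0.0588) or 3 (0.0701), any ST-HSC control sample (0.0625, 0.0572 and 0.118), ST-HSC NR sample 3 (0.0701) or both libraries rich in reads outside genes (0.0952), with that share as covariate (0.0630) and with a replicate block (0.0520). The coenzyme A carrier Slc25a16, the peroxisomal carrier Slc25a17 and the S-adenosylmethionine carrier Slc25a26 had averaged log2 changes of -0.12, -0.09 and -0.10.

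Of the iron and glutathione carriers, Slc25a28 (mitoferrin-2), which brings in iron, rose in ST-HSCs by 22.4% (log2 change 0.29, interval 0.10 to 0.49, edgeR adjusted p = 0.0417). It read 31.8, 28.6 and 27.0 CPM in control ST-HSCs and 35.2, 36.0 and 35.6 CPM with NR, without overlap. In LT-HSCs it read 29.5, 31.6 and 33.8 CPM in control culture and 30.1, 33.6 and 28.9 CPM with NR, with overlap and a log2 change of -0.04 that turned to 0.02 with relative log expression factors. The ST-HSC call was lost without LT-HSC control sample 2 (adjusted p = 0.0544), ST-HSC control sample 2 (0.120) or 3 (0.168), or ST-HSC NR sample 1 (0.0860) or 2 (0.0911). Averaged, Slc25a28 had 0.13 (edgeR adjusted p = 0.190), called higher with relative log expression factors, DESeq2 or a mean of at least 5 CPM. Slc25a37 (mitoferrin-1), the iron carrier of erythroid cells, had an averaged log2 change of 0.07, and Slc25a39, which carries glutathione, and its relative Slc25a40 had -0.14 and -0.09, none of them called. With a replicate block the averaged fall of Slc25a39 was called (adjusted p = 0.0326).

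Of the carriers related to uncoupling proteins, Slc25a30 rose by 33.2% averaged (log2 change 0.41, interval 0.21 to 0.61, edgeR adjusted p = 0.005). It read 8.72, 9.73 and 8.05 CPM in control LT-HSCs and 9.495, 12.1 and 10.5 CPM with NR, and 6.79, 8.23 and 8.40 CPM in control ST-HSCs and 12.1, 11.5 and 10.8 CPM with NR. The ST-HSC groups were apart and the LT-HSC groups met at control sample 2. The averaged call held in each setting tried, and the ST-HSC call (46.5% higher, adjusted p = 0.0106) was lost without ST-HSC control sample 1 (0.0537). Slc25a14 had an averaged log2 change of 0.26 (adjusted p = 0.0658), which was called, among other settings, with relative log expression factors (0.33, 0.0272) and without both libraries rich in reads outside genes (0.38, 0.0328), and Slc25a27 had 0.04. Ucp2, the main uncoupling protein of blood cells, is not among the Slc25a symbols and had 0.02 (adjusted p = 0.844).

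**Figure D4:**
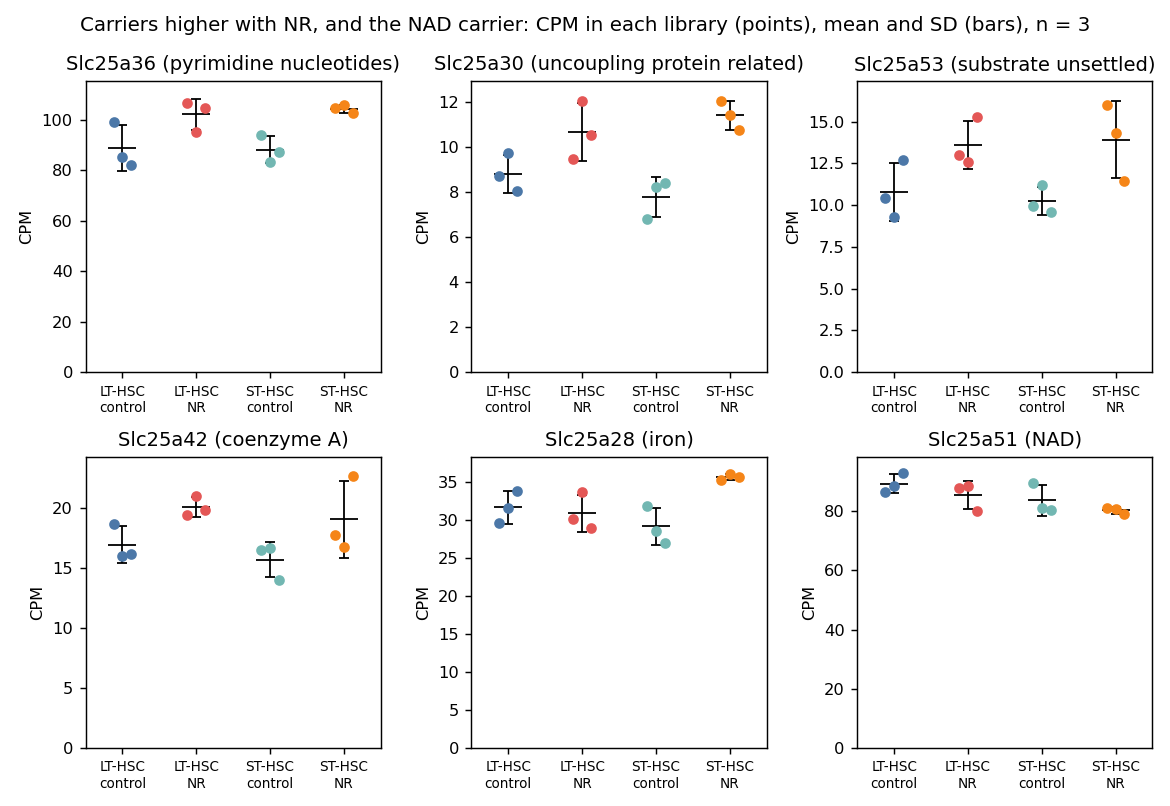
CPM of 5 carriers called higher with NR in at least 1 comparison, and of the NAD carrier Slc25a51, in each library (points) with the mean and SD of 3 libraries per group (bars), axes from 0. NR points of Slc25a42 lie above the controls in both cell types, those of Slc25a36, Slc25a30, Slc25a53 and Slc25a28 do so in ST-HSCs, and Slc25a51 stays between 78.9 and 93.1 CPM.

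Slc25a35, a carrier whose substrate is unsettled, had the largest ratio of the highest to the lowest library among the 39 carriers, 4.56, with levels from 2.87 to 13.1 CPM. It read 11.6, 13.1 and 12.1 CPM in control LT-HSCs and 7.53, 10.7 and 7.77 CPM with NR. It read 8.26, 7.94 and 6.59 CPM in control ST-HSCs and 2.87, 4.55 and 4.15 CPM with NR. None of the groups compared overlapped: NR was below control, and ST-HSCs below LT-HSCs in either culture. It fell by 49.3% in ST-HSCs (log2 change -0.98, interval -1.39 to -0.57, edgeR adjusted p = 0.00315) and by 40.1% averaged (adjusted p = 0.00104), both calls kept in each setting tried. In LT-HSCs the log2 change was -0.50 (adjusted p = 0.112), and the test of the difference of the 2 effects gave -0.48 (interval -1.04 to 0.08, adjusted p = 0.934). Slc25a35 (chromosome 11, 68968131 to 68974365) shares 31.3% of its exon bases with Rangrf on the opposite strand. No source used here gives the strand setting of the counting. Counted without strand, reads in the shared bases would be ambiguous and left out of both genes. Rangrf had 0 to 5 counts, but 90.7% of its exon bases are shared, so these counts do not show how much Rangrf RNA there was.

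Slc25a35 was also the only carrier of 42 called between the cell types. Its level was 1.61 times as high in LT-HSCs as in ST-HSCs in control culture (log2 difference 0.69, interval 0.30 to 1.08, edgeR adjusted p = 0.0463), where 3.51% of all genes were higher and 1.50% lower in LT-HSCs. With NR it was 2.25 times as high (1.17, interval 0.76 to 1.58, adjusted p = 0.00184), against 3.80% higher and 2.27% lower. The call with NR held in each setting tried. The call in control culture was lost without LT-HSC control sample 1 (0.0839), 2 (0.165) or 3 (0.117) or ST-HSC control sample 1 (0.0909), 2 (0.113) or 3 (0.197). The 2 contrasts share no library. Members called were 2.38% higher and 0% lower in both, and the median log2 difference of the carriers was 0.00 in control culture and -0.01 with NR.

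Slc25a53, also without a settled substrate, rose by 31.1% averaged (log2 change 0.39, interval 0.16 to 0.62, edgeR adjusted p = 0.0167). It read 10.4, 9.26 and 12.7 CPM in control LT-HSCs and 13.0, 12.6 and 15.3 CPM with NR, and 9.94, 11.2 and 9.59 CPM in control ST-HSCs and 16.03, 14.3 and 11.4 CPM with NR. The groups overlapped in LT-HSCs and, narrowly, not in ST-HSCs. The averaged call held in each setting tried, and the ST-HSC change (adjusted p = 0.0627) passed, among others, without ST-HSC NR sample 3 (0.0157), with relative log expression factors (0.0354) and with DESeq2 (0.0165). Slc25a45 had an averaged log2 change of 0.16 (adjusted p = 0.0611), and was called in 9 of 19 other settings, among them relative log expression factors (0.22, 0.00689) and leaving out both libraries rich in reads outside genes (0.26, 0.00505). In ST-HSCs it had 0.18 (0.166) and was called in 4 of 20 settings, without both libraries at 0.29 (0.0280). Slc25a43, Slc25a46, which acts in the outer membrane, and Slc25a47 had -0.13, -0.10 and -0.05. Slc25a48 had 0 to 8 counts, and Slc25a21, Slc25a34 and Slc25a41 passed the filter with means under 1 CPM, at 0 to 26, 1 to 27 and 15 to 33 counts.

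The NR effects on carriers were not shown to differ between the cell types. In the test of the difference 0 of 42 carriers passed in either direction with edgeR, against 0.0101% higher and 0.00% lower of all genes, and 0 with DESeq2. At an unadjusted p under 0.05 there was 1, Slc25a28, with a difference of 0.33 (interval 0.05 to 0.60, edgeR adjusted p = 0.708). For Slc25a4 and Slc25a5 the differences were -0.01 (interval -0.23 to 0.22) and -0.05 (interval -0.29 to 0.20).

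Levels between genes were compared per length, as CPM per kb of exon (GENCODE M21). Slc25a5 led with a mean of 440 CPM per kb over 12 libraries, followed by Slc25a11 at 103, Slc25a1 at 79.8, Slc25a39 at 69.4, Slc25a4 at 56.9 and Slc25a3 at 55.3. Slc25a5 made up 39.6% of the family's summed level per kb, and these 6 genes together 72.4%. Slc25a51 was at 15.4 CPM per kb and Slc25a35 at 2.20. The summed CPM of the family was 3256 to 3435 in control LT-HSCs and 2691 to 3061 with NR, and 3342 to 3356 in control ST-HSCs and 2728 to 3062 with NR. Without Slc25a5 the sums were 2463 to 2553 and 2151 to 2408 in LT-HSCs, and 2457 to 2493 and 2172 to 2402 in ST-HSCs. Slc25a5 took 23.7% to 25.7% of the family's counts in control LT-HSCs and 20.1% to 21.3% with NR, and 25.7% to 26.5% and 20.4% to 21.6% in ST-HSCs. The lowest NR sums were in the 2 libraries rich in reads outside genes, and the other NR libraries also lay below all controls.

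**Figure D5:**
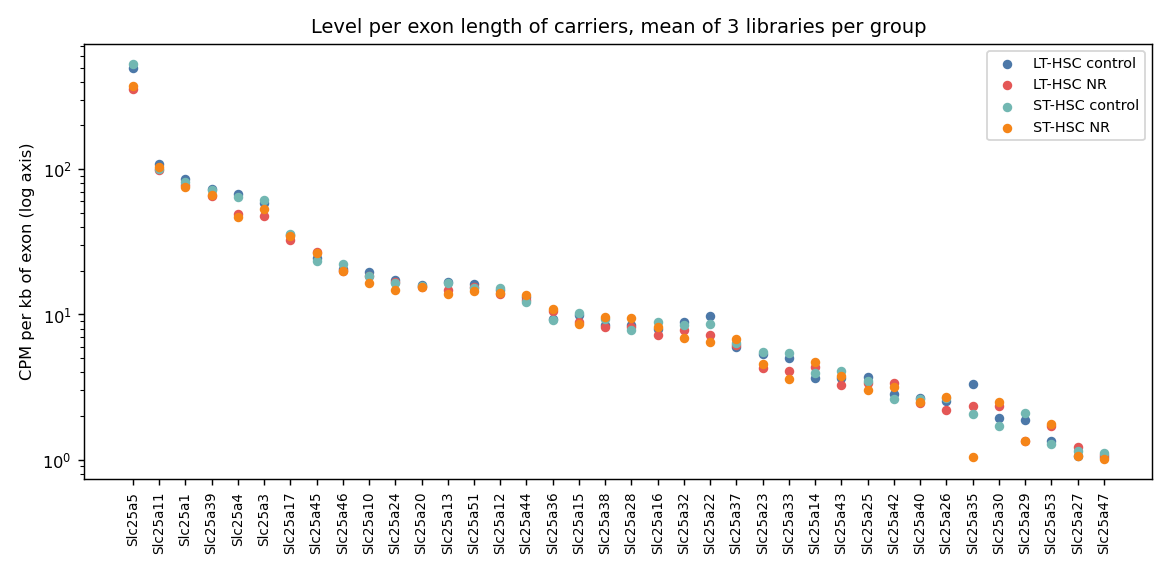
Mean CPM per kb of exon (log axis) in each group of 3 libraries for carriers with a mean of at least 1 CPM, ordered by the mean over 12 libraries. Slc25a5 stands above all others in the 4 groups, and the 4 points of Slc25a35 are spread most widely on this log axis.

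Other genes around the carriers were followed from lists made alongside the member classes. Of 28 other transporters and pores of the mitochondrial membranes, 27 were tested: 6 fell and 1 rose in LT-HSCs, 7 fell and 2 rose in ST-HSCs and 11 fell and 2 rose averaged. Of all genes 7.58% fell and 2.38% rose in LT-HSCs, 11.1% and 5.82% in ST-HSCs and 16.1% and 7.88% averaged. The median averaged log2 change was -0.06, against 0.03 for all genes. Without both libraries rich in reads outside genes 6 fell and 2 rose averaged, against 10.6% and 10.3% of all genes. The medians were then -0.01 for the list and -0.08 for all genes. Slc8b1, the sodium/calcium exchanger that takes calcium out of the matrix, rose by 0.93 averaged (SE 0.06, edgeR adjusted p = 4.36e-07) and Tspo, an outer membrane protein, by 0.23 (0.0156). The smallest p among the falls was that of Sfxn1, a serine transporter, at -0.61 (SE 0.05, adjusted p = 1.81e-06), followed by Abcb8 at -0.55, Letm1 at -0.35, the porin Vdac2 at -0.33 and Sfxn2 at -0.44.

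Of 40 enzymes that make or use what the carriers move, 15 fell and 1 rose in LT-HSCs, 14 fell and 3 rose in ST-HSCs and 18 fell and 4 rose averaged, against the same shares of all genes, with a median averaged log2 change of -0.14 against 0.03 for all genes. Without both libraries rich in reads outside genes 14 fell and 6 rose averaged, against 10.6% and 10.3% of all genes. The medians were then -0.04 for the list and -0.08 for all genes. Falls with the smallest p were Shmt2 and Mthfd2 of mitochondrial one-carbon metabolism (-1.01 and -1.40), Aldh18a1 and Pycr1 of proline synthesis (-1.02 and -2.54) and Got2, the matrix aminotransferase of the malate-aspartate shuttle (-0.42), with edgeR adjusted p from 6.20e-08 to 1.96e-05. All 4 enzymes that rose averaged belong to glutathione metabolism: Gclm (0.97), Gclc (0.45), Gss (0.35) and Gsr (0.32), while the glutathione carrier Slc25a39 had -0.14 (adjusted p = 0.069).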

How the data were processed

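The submitters' processing notes name FastQC 0.11.2, STAR 2.5.0b (an aligner) and HTSeq 0.6.1 (a read counter). The authors deposited raw read counts per Ensembl gene, with 1 column per library, and 0 columns were not used. Per the labels' protocols, cDNA was made from 2.5 ng RNA with SMART-seq v4 and Nextera XT. Build, annotation and strand setting: not given in the sources used here. Reads in no feature (8.69% to 28.5% per library) and ambiguous reads (3.30% to 4.38%) stayed out of library sizes and tests. Symbols came from GENCODE M21 for 53274 of 53465 genes.

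The test was edgeR 4.0.16 (R 4.3.3): quasi-likelihood, two-sided, TMM factors, all 12 samples with 4 group means, after filterByExpr (at least 10 counts, total at least 15), leaving 19830 genes. The common biological coefficient of variation came to 0.402, on 8 residual degrees of freedom. A gene was called at a Benjamini-Hochberg adjusted p under 0.05, adjusted within each comparison. The script was tested on simulated data. CPM values are counts scaled by TMM library sizes, and depth was 24.6 M to 35.5 M counts. No replicates were duplicates: their pairwise chi-square over its degrees of freedom was 5.90 to 35.1.

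The members, substrate classes, other gene lists and the rule for named genes were chosen with earlier results of these data known. Values in every sample are given for up to 8 members called in each direction with NR, up to 4 for each contrast of the cell types, and Slc25a51, Slc25a4, Slc25a5, Slc25a3 and Slc25a1. Slc25a32, outside this rule, is also shown in every sample and was chosen after its values were seen. The single values of some genes are not reported here.

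Whether equal replicate numbers pair the samples was checked by correlating deviations from the group means. Same-numbered LT-HSC control and NR samples gave 0.51, 0.25 and 0.71, and LT-HSC NR and ST-HSC NR samples 0.74, 0.15 and 0.84. ST-HSC control and NR samples gave 0.67, -0.06 and 0.55, and the control samples of both cell types 0.42, -0.23 and 0.43. Samples of different number gave -0.78 to 0.53, the highest for LT-HSC NR sample 3 and ST-HSC control sample 2. Pairing and a shared share of reads outside genes were not told apart. The main test did not pair the samples, and the replicate block was run as another setting. Other settings tried were relative log expression factors, DESeq2 1.42.0, no low-count filter, a mean of at least 5 CPM, only the groups compared, a replicate block, leaving out 1 library at a time and both libraries rich in reads outside genes. The logit of the share of reads in no feature as covariate was added after seeing the data.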

Additional observations from a re-analysis of the deposited data

How the results depend on the processing

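Settings moved counts of called carriers more than they moved the directions of the carriers followed for changes of sign. In LT-HSCs 1 carrier rose with DESeq2 and 3 with a mean of at least 5 CPM, against 0. In ST-HSCs the 2 that rose became 6 with relative log expression factors or DESeq2, 7 with the 5 CPM minimum, and 4 with no low-count filter or without both libraries rich in reads outside genes, and the 7 that fell became 4 under these last 2 settings. Averaged, 8 instead of 4 rose with relative log expression factors, DESeq2 or a mean of at least 5 CPM. With that filter 1 carrier, Slc25a3, instead of 0 was lower in LT-HSCs than in ST-HSCs with NR.

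Leaving out each library in turn gave 0 to 1 higher and 2 to 4 lower in LT-HSCs (2 lower on leaving out control samples 2 and 3 and NR samples 1 and 3 one by one, and 1 higher on leaving out control sample 1). It gave 1 to 3 higher and 4 to 7 lower in ST-HSCs (4 lower without LT-HSC NR sample 1 or 2, ST-HSC control sample 3 or ST-HSC NR sample 2, and 1 higher without LT-HSC control sample 2, any ST-HSC control or ST-HSC NR sample 1 or 2). Averaged, it gave 3 to 6 higher and 6 to 10 lower, with 6 and 6 without ST-HSC NR sample 3. For LT-HSCs against ST-HSCs it gave 0 to 1 higher and 0 lower in control culture, 0 higher without any 1 of its 6 libraries, and 1 higher and 0 to 1 lower with NR, the 1 lower without ST-HSC NR sample 3. The difference of effects kept 0 and 0. The shares of all genes called with 1 library left out are not reported here, and the cause of these moves was not tested.

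With the replicate block LT-HSCs had 0 carriers higher and 4 lower, ST-HSCs 3 and 8, and the averaged effect 3 and 11. Of all genes 3.38% were then higher and 9.57% lower in LT-HSCs, 6.86% and 13.4% in ST-HSCs and 9.23% and 17.9% averaged. Of the carriers given in every sample, the block ended the averaged call of Slc25a42 and added ST-HSC calls of Slc25a3 and Slc25a36, and it changed no other call of theirs. Among the other carriers it added averaged falls of Slc25a13 and Slc25a39.

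Changes of sign were followed for the carriers given in every sample, for Slc25a13, Slc25a14, Slc25a39 and Slc25a45, and for ratios of carriers. Among these they were all of small values, and they were not followed for the other carriers. Slc25a51 became 0.0037 with the 5 CPM minimum and 0.0015 without both libraries in LT-HSCs. In ST-HSCs it became 0.015 with relative log expression factors or DESeq2, 0.012 with no low-count filter, 0.019 with the 5 CPM minimum and 0.026 without both libraries (leave-one-out range -0.088 to 0.026, positive without ST-HSC NR sample 3). Averaged, it became 0.0026 with relative log expression factors, 0.0029 with DESeq2, 0.011 with the 5 CPM minimum and 0.014 without both libraries. Slc25a1 in ST-HSCs became 0.027 without both libraries (leave-one-out range -0.20 to 0.027, positive without ST-HSC NR sample 3). Slc25a28 in LT-HSCs became 0.017 with relative log expression factors, 0.018 with DESeq2, 0.014 with no low-count filter, 0.031 with the 5 CPM minimum, 0.016 with only the groups compared, and 0.028 without both libraries (leave-one-out range -0.083 to 0.015, positive without LT-HSC control sample 3 or NR sample 3). Slc25a39 in ST-HSCs became 0.0077 without both libraries (leave-one-out range -0.16 to 0.0077, positive without ST-HSC NR sample 3). The averaged log2 ratio of Slc25a5 to Slc25a4 became 0.00090 without both libraries, and that of Slc25a40 to Slc25a39 ran from -0.0044, without ST-HSC control sample 1, to 0.12 over single libraries left out. Carriers under 1 CPM had too few counts for a change to be read.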

Other observations

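Of 8 carriers with means under 1 CPM, Slc25a21, Slc25a34 and Slc25a54 had their 2 highest values in the 2 libraries with the most reads outside genes, and the other 5 did not. These 3 were chosen after their values were seen. Slc25a34 read 0.666 CPM in LT-HSC NR sample 3 and 0.933 CPM in ST-HSC NR sample 3, and at most 0.356 CPM elsewhere. Slc25a21 read 0.962 and 0.691 CPM there and at most 0.613 CPM elsewhere, and Slc25a54 0.370 and 0.173 CPM there and at most 0.107 CPM elsewhere.

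Carriers that lie next to each other in the genome did not all have alike values. Slc25a43 lies 18448 bases from Slc25a5 on chromosome X and had an averaged log2 change of -0.13 (interval -0.46 to 0.20), against -0.49 for Slc25a5. Slc25a29 and Slc25a47, 162 bases apart on chromosome 12, had -0.56 (interval -1.02 to -0.09) and -0.05 (interval -0.41 to 0.31). The pseudogene Slc25a5-ps, left out of the members, had 2 to 20 counts per library.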
